A study of Danio rerio with 4 samples.

Results

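The respiratory chain genes were followed through single-cell profiles of zebrafish embryos at the shield stage, the start of gastrulation. The set was defined by symbol. It holds the features whose name starts with *ndufa*, *ndufb*, *ndufc*, *ndufs*, *ndufv*, *uqcr* or *atp5*, or with *cox* followed by 4, 5, 6, 7 or 8, and the protein genes of mitochondrial DNA. This gave 126 of 47394 features, of which 113 were entries for nuclear genes and 13 were entries for mitochondrial genes. The cells were read out by depth, with a limit of 3000 UMIs (unique molecular identifiers, each a counted mRNA molecule), by library, and by a value over 0.5 for each of 6 marker genes: *krt92*, *sox32*, *noto*, *tbx6l*, *foxi1* and *her3*.

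The respiratory chain passes electrons from NADH to oxygen through complexes I, III and IV of the inner mitochondrial membrane and pumps protons, and the ATP synthase uses the proton gradient to make ATP. Most subunits are encoded in the nucleus and imported, while mitochondrial DNA encodes a small core of hydrophobic subunits of complexes I, III and IV and of the ATP synthase, beside the mitochondrial rRNAs and tRNAs. In the fish embryo the mitochondria are inherited from the egg, as is the mRNA present before the zygotic genome is switched on.

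The libraries compared siblings, which the labels give as wild type, with M*rbm24a* embryos, which lack the maternal product of *rbm24a*, a gene for an RNA-binding protein. The study obtained M*rbm24a* embryos with Cas9 driven by the oocyte promoter *zpc* and guides against *rbm24a* in a line with an *rbm24a*-RFP knock-in. There were 2 libraries of each genotype, numbered 1 and 2, made from pooled whole embryos, with 33 embryos stated for the dissociation. Neither the labels nor the paper say whether the library numbers stand for the batches, so no value could be given within a batch.

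Between 3402 and 3952 cells per library were deposited, with 40176506 to 61973441 UMIs per library in all and a median of 9778 to 15667 UMIs per cell. Cells under 3000 UMIs numbered 219 and 1213 in the sibling libraries and 852 and 833 in those of M*rbm24a*, which left 11338 cells over 3000 UMIs. The mRNA of *rbm24a* itself lay between 0.314 and 0.469 CPM in the libraries, and the 3′ ends counted do not show the mutation. Of the cell barcodes, 16 occurred in 2 libraries (0.111% of the distinct barcodes). Levels are given in CPM, the UMIs of a gene scaled to a total of 1000000 in the library or cell group, and 4 values in a row stand for sibling 1, sibling 2, M*rbm24a* 1 and M*rbm24a* 2 throughout. Since each molecule was counted once at its 3′ end, the levels were not divided by gene length.

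The mitochondrial members gave no signal at all in the deposited values. No symbol starts with mt-nd, mt-co, mt-cy or mt-atp, and the genes are named ND1, ND2, ND3, ND4, ND4L, ND5 and ND6 (complex I), CYTB (complex III), COX1, COX2 and COX3 (complex IV), and ATP6 and ATP8 (ATP synthase). All 13 were listed at 0 in all 14455 cells, so their share of UMIs was 0 in every library, marker group and depth class, and none entered a test. The rRNAs of the same genome, *mt-rnr1* and *mt-rnr2*, together held 1.47%, 2.05%, 0.911% and 0.958% of UMIs in the 4 libraries. The cause of the zeros was not tested, and they were read neither as absent transcription nor as a difference between cells.

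The nuclear members were expressed broadly. Of the 113 entries, 89 had counts, and they held 1.22%, 1.01%, 1.21% and 1.18% of all UMIs in the 4 libraries. The remaining 24 entries were listed at 0, and 22 of these belonged to symbols with more than 1 entry, where 22 of 36 entries (61.1%) were at 0. Among nuclear members with 1 entry per symbol, only *ndufa9b* and *cox4i1l* were at 0 (2 of 77, 2.60%). The same split was seen over all other features, with 70.9% of entries at 0 where the symbol was repeated and 14.8% where it was not. For *ndufa4*, *ndufa8*, *ndufa12*, *ndufb4*, *ndufb5*, *ndufb9*, *ndufs4*, *cox7a1* and *cox7a3*, every entry was at 0, and no level can be given for these 9 symbols.

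Among subunits of the ATP synthase (19 entries), the proteolipid genes of the membrane ring were counted at 779.5 ± 36.9 CPM for *atp5g3b*, 750.6 ± 18.2 CPM for *atp5g1* and 571 ± 27.9 CPM for *atp5g3a* (SD, n = 4 libraries). The genes of the catalytic head, *atp5b* and *atp5a1*, had 435 ± 54.6 and 351 ± 35 CPM. In complex I (48 entries), *ndufc2* had 257 ± 49.0 CPM and *ndufab1a_1*, an entry for the mitochondrial acyl carrier protein, 212 ± 6.33 CPM, while the 8 assembly factors lay at or below 28.4 CPM. In complex III (10 entries), *uqcrh*, the hinge protein, had 565 ± 42.8 CPM and the Rieske iron-sulphur protein gene *uqcrfs1* had 247 ± 28.7 CPM.

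In complex IV (23 entries) the paralogs of one subunit had unlike levels. The *cox4i1* gene was counted at 479 ± 35.8 CPM, *cox4i2* at 1.19 ± 0.48 CPM and *cox4i1l* at 0. The *cox6a1* gene had 242 ± 27.3 CPM, while the 2 entries for *cox6a2* lay under 0.05 CPM, and *cox6b2* had 654 ± 100 CPM beside 0.13 CPM for *cox6b1*. For *cox8a* the level was 186 ± 32.3 CPM and for *cox8b* 0.36 CPM, and *cox7a2a* and *cox7a2b* had 112 ± 31.1 and 133 ± 35.7 CPM. The entries for *cox5b1* and *cox5b2* lay at or below 0.03 CPM. Of the *ndufa4* family, whose product in mammals is a subunit of complex IV, *ndufa4l* had 959 ± 140 CPM and *ndufa4l2* and *ndufa4l2a* at most 0.02 CPM.

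Sibling 2 stood apart from the other libraries. Of 66 nuclear members over 10 CPM, 37 (56.1%) were lowest in sibling 2, compared with 24.5% of all features over 10 CPM, and 24 (36.4%) were highest there, compared with 52.4%. The ratio of sibling 2 to the mean of the other 3 libraries was under 0.75 for 29 members (43.9%), compared with 5.77% of 6604 features over 10 CPM, and the members' median ratio was 0.858 beside 1.06 over all these features. This was seen after looking at the data, and it is a description of 1 library. Among the lowest ratios, *atp5j2*, subunit f of the ATP synthase, had 43.6 CPM in sibling 2 and 101 to 119 CPM in the others. *cox7c* had 241 CPM in sibling 2 and 511 to 655 CPM in the others, and *ndufa5* had 40.2 CPM compared with 82.6 to 95.5 CPM.

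Among the highest ratios, *ndufs3*, a core subunit of complex I, had 71.6 CPM in sibling 2 and 47.2 to 54.8 CPM in the others (ratio 1.39). *atp5c1*, the central stalk of the ATP synthase, had 125 CPM compared with 82.2 to 101 CPM (ratio 1.38). By complex, the median ratio was 0.705 for 11 members of complex IV, 0.836 for 28 of complex I, 0.964 for 6 of complex III, 1.06 for 16 of the ATP synthase and 1.17 for 4 assembly factors. In cells of 8000 to 20000 UMIs alone, 28 of 65 members (43.1%) had a ratio under 0.75, compared with 7.17% of 6523 features. In all cells, 41 of 73 cytosolic ribosomal protein genes were under 0.75, and the part of depth, RNA quality or library size selection was not tested.

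**Figure D1:**
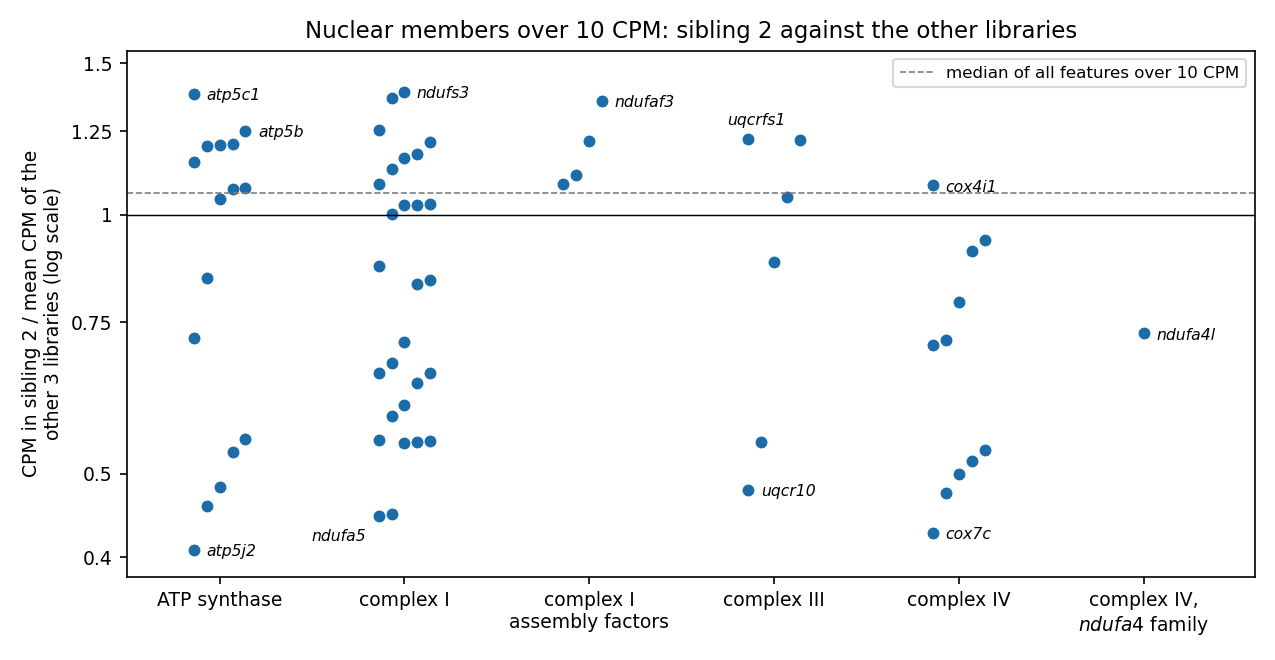
Each point is 1 of 66 nuclear members over 10 CPM, placed by complex, and the vertical log axis gives its CPM in sibling 2 divided by the mean CPM of the other 3 libraries. The dashed line is the median of all features over 10 CPM (1.06), and the members spread from 0.408 (*atp5j2*) to 1.39 (*ndufs3*).

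Siblings and M*rbm24a* embryos were compared to see whether loss of maternal Rbm24a went with a different level of these genes. The nuclear share was 1.12% ± 0.148 in siblings and 1.20% ± 0.0158 in M*rbm24a* (SD, n = 2 libraries each, all cells), and both M*rbm24a* libraries lay between the sibling libraries. No nuclear member was called (0 of 79 tested, edgeR), with 1.1% of all genes called in this comparison, while 14 members had an unadjusted p under 0.05. DESeq2 called 1 member (*atp5ib_2*, 2.46% of all genes) and limma 1 (*uqcrq_1*, 1.63% of all genes). With no filter on low counts edgeR called 28 of 89 members, 24 higher and 4 lower in M*rbm24a*, with 6.55% of all genes called.

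The smallest p-values belonged to weakly expressed genes. *uqcrq_1*, a second entry for a small subunit of complex III, had 0.749, 0.455, 1.52 and 1.40 CPM, a log2 fold change of 1.26 ± 0.29 (SE, adjusted p = 0.107). *atp5ib_2*, one of 3 entries for subunit e of the ATP synthase, had 1.69, 0.791, 3.26 and 2.96 CPM, a log2 fold change of 1.28 ± 0.32 (adjusted p = 0.129). How reads were divided among the entries of 1 symbol was not tested. *cox4i2* went the other way, with 1.53, 1.63, 0.951 and 0.631 CPM and a log2 fold change of −0.99 ± 0.25 (adjusted p = 0.13). For each of the 3 genes both M*rbm24a* libraries lay on one side of both siblings. The genes were picked by smallest p, so this adds no support. The libraries of the genotypes did not overlap for 35 of the 79 members tested. The share over all genes was not worked out, so this count is not read as a result about these genes.

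The count depended on which sibling library was kept. Without sibling 1, so that sibling 2 stood alone, 40 members were called higher and 11 lower in M*rbm24a*, with 20.3% of all genes called. Without sibling 2, 5 members were called, *atp5ib_2* and *uqcrq_1* higher and *cox4i2*, *atp5d* and *atp5c1* lower, with 5.53% of all genes called. In both fits the remaining sibling library was assumed to vary like the M*rbm24a* libraries, from which the spread came. Of the mitochondrial rRNAs, *mt-rnr1* was lower in M*rbm24a* (log2 fold change −1.45 ± 0.23, adjusted p = 0.0432) and *mt-rnr2* had a log2 fold change of −0.83 ± 0.14 (adjusted p = 0.0524).

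Cells under 3000 UMIs had a lower nuclear share than cells over 3000 UMIs in all 4 libraries, with 0.856%, 0.746%, 0.988% and 0.689% compared with 1.23%, 1.02%, 1.21% and 1.20%. The depth classes did not overlap across libraries. The share went up from one depth bin to the next in each library, with 1 exception (1.16% at 3000 to 8000 and 1.14% at 8000 to 20000 UMIs in M*rbm24a* 1), and reached 1.08% to 1.3% over 20000 UMIs. The mitochondrial rRNAs moved the opposite way, from 2.05% to 8.28% of UMIs under 3000 to 0.877% to 1.85% over 3000 UMIs, and cytosolic ribosomal proteins from 5.35% to 8.06% up to 8.34% to 10.8%. Cells with *krt92* made up 20.1%, 29.2%, 2.53% and 9.52% of cells at 1000 to 3000 UMIs, and 0.661% to 1.66% at 8000 to 20000 UMIs. Over 20000 UMIs they made up more again, with 4.14%, 4.17%, 3.78% and 5.74%. The part of damaged cells, cell type or DecontX in these shares was not tested.

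**Figure D2:**
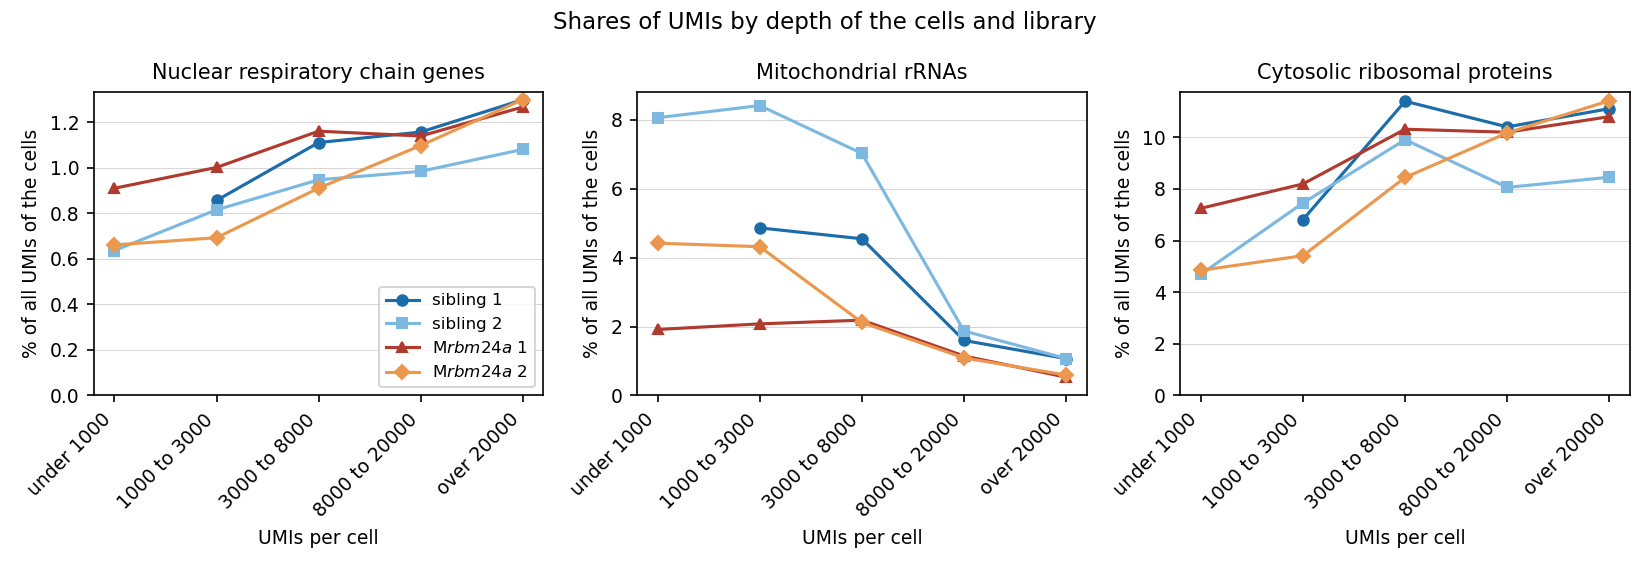
Shares of all UMIs (vertical axes, %) from nuclear respiratory chain genes, mitochondrial rRNAs and cytosolic ribosomal proteins, by bin of UMIs per cell (horizontal axis), with 1 line per library and bins of under 20 cells left out. The nuclear share lies between 0.636% and 0.909% under 1000 UMIs and between 1.08% and 1.3% over 20000 UMIs, where the mitochondrial rRNAs lie between 0.529% and 1.07%.

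Gene by gene, 61 of 78 nuclear members fell in cells under 3000 UMIs and 0 rose, with 28.4% of all genes called and 15.5% called lower. The members' median log2 fold change was −0.84, beside 0.03 over all genes tested. Fold changes are scaled by TMM, so they differ from the ratios of the CPM printed, and 48 of the 61 were lower in CPM in all 4 libraries. On log2(CPM + 1) with no such scaling (limma), 43 members fell, with 27.4% of all genes called, and the medians were −0.46 for members and 0.25 for all genes. By complex, 25 of 29 members of complex I fell, 16 of 18 of the ATP synthase, 11 of 12 of complex IV, 5 of 10 of complex III and 3 of 8 assembly factors. The 5 largest falls were those of *cox7b*, *atp5h*, *ndufa6*, *ndufab1b* and *ndufa10*. *cox7b*, a small subunit of complex IV, had 117, 68.4, 162 and 80.5 CPM under 3000 UMIs compared with 224, 101, 223 and 189 CPM over 3000 UMIs. It was lower in every library, and the classes overlapped only through sibling 2 (log2 fold change −1.16 ± 0.15).

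*atp5h*, subunit d of the peripheral stalk of the ATP synthase, had 55.0, 51.8, 50.5 and 31.5 CPM compared with 84.7, 88.7, 69.7 and 75.2 CPM, with no overlap (−1.14 ± 0.15). *ndufab1b*, the second gene for the acyl carrier protein, had 69.3, 73.2, 85.8 and 42.5 CPM compared with 116, 111, 108 and 107 CPM, again with no overlap (−1.09 ± 0.16). *ndufa6* and *ndufa10*, accessory subunits of complex I, had log2 fold changes of −1.13 ± 0.17 and −1.08 ± 0.17. Members that were not called included *ndufv1* (−0.13 ± 0.16, adjusted p = 0.597), *ndufs1* (−0.16 ± 0.18, adjusted p = 0.548) and *uqcrc2b* (−0.20 ± 0.13, adjusted p = 0.259), which were chosen after their values were seen and whose CPM was higher under 3000 UMIs in 3 of 4 libraries.

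The marker groups were broad. Over 3000 UMIs, 366 cells (3.23%) had a value over 0.5 for *krt92*, the gene of an enveloping layer keratin, 3674 (32.4%) for *sox32*, an endoderm regulator, 3534 (31.2%) for *noto*, a notochord regulator, 3298 (29.1%) for *tbx6l*, a gene of the ventrolateral and paraxial mesoderm, 2226 (19.6%) for *foxi1*, a gene of the ventral ectoderm, and 3260 (28.8%) for *her3*, a neural gene. Between 57.4% and 79.6% of each group were also positive for another of the 6 genes, and 2215 cells (19.5%) were positive for none. The companion marker of *krt92* cells, *cyt1*, was at 7044 CPM in these cells and 0.403 CPM in the other cells. The *sox32* cells had *sox17* at 25 CPM compared with 1.45 CPM, and *tbx6l* cells had *msgn1* at 618 CPM compared with 96.7 CPM. In and outside *noto* cells, *foxa2* had 116 and 43.7 CPM, *shha* 3.42 and 0.414 CPM and *ta* 225 and 181 CPM. For *foxi1*, *gata2a* had 87.9 and 29.7 CPM, *tfap2a* 89.4 and 34 CPM and *gata3* 16.0 and 14.8 CPM, the last higher in 3 of 4 libraries. For *her3*, *foxb1a* had 63.5 and 27.9 CPM and *sox3* 453 and 332 CPM. All groups are called by their marker.

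Depth differed between the groups. The median cell over 3000 UMIs had 10781 to 14098 UMIs where none of the 6 genes was found, and 15710 to 21686 UMIs in *sox32* cells, depending on the library. Since the nuclear share rose with depth, each group was also compared with the other cells of its library among cells of 8000 to 20000 UMIs. Depth can still differ between the groups within this range, and its part there was not tested.

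The nuclear share was higher in 5 of the 6 marker groups than in the other cells over 3000 UMIs, in every library. It was 1.33%, 1.10%, 1.26% and 1.3% in *sox32* cells, compared with 1.16%, 0.989%, 1.14% and 1.09% in the other cells. The differences averaged 0.151 ± 0.045 percentage points for *sox32*, 0.116 ± 0.046 for *tbx6l*, 0.0944 ± 0.0449 for *noto*, 0.0806 ± 0.0377 for *her3* and 0.0678 ± 0.0362 for *foxi1* (SD, n = 4 libraries). At 8000 to 20000 UMIs they were 0.0406 ± 0.0116 for *sox32* and 0.0275 ± 0.014 for *tbx6l*, higher in 4 of 4 libraries, and 0.0063 ± 0.0088 for *noto*, higher in 2 of 4. They turned negative for *her3* (−0.0164 ± 0.0102) and *foxi1* (−0.0054 ± 0.0041), lower in 4 of 4 libraries. Under 3000 UMIs, 22 of 24 pairs of marker and library held at least 20 cells, and in 22 of these 22 the share was lower than in the same group over 3000 UMIs.

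**Figure D3:**
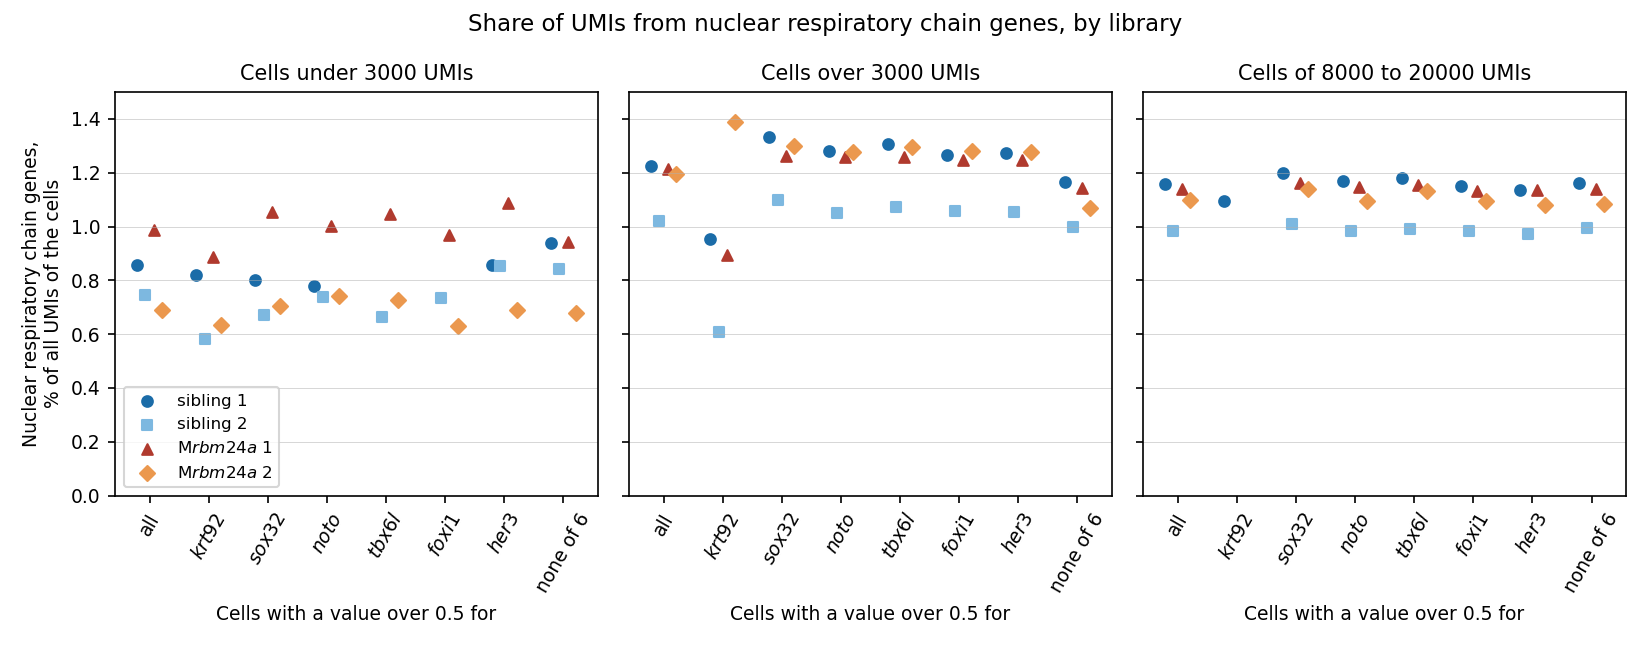
Share of all UMIs from nuclear respiratory chain genes (vertical axis, %) in all cells, in cells with a value over 0.5 for each marker and in cells with none, under 3000, over 3000 and at 8000 to 20000 UMIs, with 1 point per library and groups of under 20 cells left out. Over 3000 UMIs the *krt92* cells spread from 0.609% to 1.39%, and at 8000 to 20000 UMIs the groups of 1 library lie close together, with sibling 2 lowest.

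In sums over all cells above 3000 UMIs, the *krt92* cells did not differ from the other cells alike in all libraries. Their nuclear share over 3000 UMIs was 0.952%, 0.609%, 0.896% and 1.39%, so that M*rbm24a* 2 lay above its other cells and the remaining libraries below theirs. In M*rbm24a* 2, 24 *krt92* cells of over 40000 UMIs held 78.9% of the group's UMIs, with a share of 1.54%. Their level of the enveloping layer genes was low, with *krt92* at 1342 CPM and *lye* at 2613 CPM, compared with 7569 and 17212 CPM in the other 69 *krt92* cells of that library. Without cells over 40000 UMIs, which was chosen after seeing this, the share was 0.973%, 0.614%, 0.883% and 0.814% in the 4 libraries, compared with 1.19%, 1.02%, 1.18% and 1.13% in the other cells. It was lower in *krt92* cells of all 4 libraries, with no overlap. Over 3000 UMIs with no upper limit, the difference as a median of the cells was −0.286 ± 0.082 percentage points. In cells with *krt92* as the only marker it was −0.349 ± 0.093, and both were lower in 4 of 4 libraries (SD, n = 4). With a value over 1.5 (−0.206 ± 0.294) or mitochondrial genes left out of the total (−0.214 ± 0.281), 1 of 4 libraries was higher. Depth differed as well. The median *krt92* cell over 3000 UMIs had 10111, 5245, 23570 and 18759 UMIs, compared with 16204, 15576, 14351 and 13771 UMIs in the other cells, and its part was not tested. Among cells of 8000 to 20000 UMIs the share could be given for sibling 1 alone, with 1.09% in 32 *krt92* cells and 1.16% in the other cells, since the remaining libraries held 9, 12 and 15 such *krt92* cells.

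Over all cells above 3000 UMIs, 6 of 78 members were called in *krt92* cells, 5 higher and 1 lower, with 28.1% of all genes called, 17.2% higher and 10.9% lower. With RLE factors 5 were higher and 0 lower (27% of all genes called), with DESeq2 7 and 0 (29.4%), with limma on log2(CPM + 1) 4 and 21 (43.1%), and with no filter on low counts 3 and 16 of 89 (23.1%). With the marker alone 7 were higher and 30 lower (43.8%), and at 8000 to 20000 UMIs, where 3 of the 4 libraries had under 20 *krt92* cells, 4 of 73 were higher and 18 lower (35%). Up to 40000 UMIs, 42 of 78 were called, 5 higher and 37 lower, with 45.6% of all genes called, 21.2% higher and 24.5% lower. The members' median log2 fold change was −0.50, beside −0.18 over all genes. All 37 were lower in 4 of 4 libraries. They were called by a fit blocked by library, which favours such genes, so this adds no support. The 6 members called over 3000 UMIs were called up to 40000 UMIs too. Over 3000 UMIs without M*rbm24a* 2, 6 were higher and 31 lower (41.8% of all genes called), while 2 were called without sibling 1 (17.4%), 3 without sibling 2 (19.3%) and 3 without M*rbm24a* 1 (17.5%).

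Up to 40000 UMIs, 24.5% of all genes were called lower. Lower members numbered 15 of 29 in complex I, 10 of 18 in the ATP synthase and 7 of 12 in complex IV. Assembly factors held 3 of 8, and complex III held 2 of 10, no more than the share over all genes. The acyl carrier gene *ndufab1b* had 38.9, 31.8, 39.6 and 33.7 CPM in *krt92* cells compared with 114, 111, 105 and 100 CPM in the other cells, with no overlap (log2 fold change −1.5 ± 0.16). *ndufs6*, a zinc-binding subunit of complex I, had 67.1, 28.6, 66.1 and 52.3 CPM compared with 158, 94.3, 154 and 142 CPM (−1.30 ± 0.16), and *ndufaf4*, an assembly factor, had 6.89, 10.6, 6.05 and 4.80 CPM compared with 17.1, 18.5, 17.5 and 16.6 CPM (−1.22 ± 0.28). In each of these the groups did not overlap. *ndufaf4* rests on few UMIs in M*rbm24a* 1 and M*rbm24a* 2, where these *krt92* cells held 779474 and 910092 UMIs in all. *ndufs6* and *ndufaf4* were named from this limit of 40000 UMIs, which was chosen after seeing the data. Among genes chosen after their values were seen, the proteolipid genes *atp5g3b* (−1.11 ± 0.15) and *atp5g3a* (−1.07 ± 0.14), the catalytic *atp5b* (−0.95 ± 0.14) and the Rieske gene *uqcrfs1* (−0.71 ± 0.14) were lower as well.

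The 5 higher genes were *ndufaf7*, *atp5s*, *ndufaf2_1*, *ndufb3* and *atp5ib_1*. Over 3000 UMIs, 17.2% of all genes were called higher, a larger share than that of the members. *ndufaf2_1*, an entry for an assembly factor of complex I, had 27.0, 28.2, 24 and 18.1 CPM in *krt92* cells over 3000 UMIs and 9.65, 10.7, 9.0 and 9.56 CPM in the other cells, with no overlap (1.53 ± 0.26, adjusted p = 5e-04). *ndufaf7*, which encodes a methyltransferase of complex I assembly in human, had 6.08, 4.09, 6.26 and 5.55 CPM compared with 2.06, 2.35, 1.51 and 1.87 CPM (1.78 ± 0.41, adjusted p = 0.0049). *atp5s*, the coupling factor B gene, had 9.92, 6.26, 3.34 and 2.54 CPM compared with 1.92, 1.44, 1.84 and 2.08 CPM (1.75 ± 0.48, adjusted p = 0.0138). The *krt92* cells over 3000 UMIs held 1.21e+06 UMIs in sibling 2 and 1.06e+06 in M*rbm24a* 1, so *ndufaf7* and *atp5s* rest on few UMIs there. *ndufb3* and *atp5ib_1* had log2 fold changes of 0.83 and 0.71. The *krt92* cells of sibling 2 also carried germ cell mRNA, with *nanos3* at 1256 CPM compared with 8.57 to 12.0 CPM in *krt92* cells of the other libraries. Its part in these values was not tested. Up to 40000 UMIs the 42 called members moved in the same direction in all 4 libraries. A fit blocked by library favours such genes, so this does not bear on the germ cell mRNA.

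In *sox32* cells over 3000 UMIs, 58 of 78 members rose and 0 fell, with 17.3% of all genes called and 11% called higher, and a median log2 fold change of 0.29 beside 0.00 over all genes. At 8000 to 20000 UMIs, 14 of 75 rose, all of them among the 58, with 7.48% of all genes called, 4.77% higher, and a median of 0.08. The 14 held 5 of 11 members of complex IV, 4 of 29 of complex I, 4 of 18 of the ATP synthase and *ndufa4l*. *ndufb8*, an accessory subunit of complex I, had 119, 125, 105 and 116 CPM in *sox32* cells over 3000 UMIs and 101, 106, 81.6 and 78.3 CPM in the other cells, higher in every library but overlapping across them (0.45 ± 0.07). Its log2 fold change at 8000 to 20000 UMIs was 0.22 ± 0.04 (adjusted p = 0.0059). *ndufs7_1*, an entry for a core iron-sulphur subunit, rose by 0.45 ± 0.07 and was at 0.08 ± 0.12 at 8000 to 20000 UMIs (adjusted p = 0.827).

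The largest rise in *sox32* cells was that of *cox4i2*, the weakly expressed isoform of subunit IV. It had 2.87, 3.74, 1.33 and 0.889 CPM in *sox32* cells and 0.759, 0.680, 0.312 and 0.307 CPM in the other cells, with no overlap (log2 fold change 2.11 ± 0.18, adjusted p = 0.0022). In *sox32* cells with none of the other 5 markers the log2 fold change was 3.33 ± 0.34. Its counts were few, with 242 UMIs in 266 cells of the whole series, and at 8000 to 20000 UMIs it did not pass the filter on low counts. Without the library block the adjusted p was 0.0518.

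In *tbx6l* cells over 3000 UMIs, 54 of 78 members rose and 0 fell, with 21.6% of all genes called and 12% called higher, and a median of 0.24. At 8000 to 20000 UMIs, 19 of 75 rose, all among the 54, with 18.5% of all genes called, 9.39% higher, and a median of 0.07. These 19 held 8 of 11 members of complex IV. Without sibling 1, 20 members were called over 3000 UMIs (8.73% of all genes). *atp5j2* had 113, 48.8, 129 and 116 CPM in *tbx6l* cells over 3000 UMIs and 95.5, 41.7, 111 and 91.0 CPM in the other cells, higher in every library and overlapping through sibling 2 (0.36 ± 0.05). *ndufb8* rose by 0.36 ± 0.07. Among cells of 8000 to 20000 UMIs the log2 fold changes were 0.17 ± 0.05 for *atp5j2* and 0.14 ± 0.04 for *ndufb8*. Cytosolic ribosomal proteins moved alike, with 67 of 83 higher and 1 lower in *tbx6l* cells of that depth.

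In *noto* cells 33 of 79 members rose over 3000 UMIs, with 6.61% of all genes called and 3.73% higher (median 0.18). At 8000 to 20000 UMIs 0 rose and 1, *atp5b*, fell, with 6.62% of all genes called, and a median of 0.01. In that comparison edgeR gave 8 members an unadjusted p under 0.05. Over 3000 UMIs, 0 members were called without sibling 1 (0.969% of all genes, with 50 members at an unadjusted p under 0.05) and 14 without M*rbm24a* 2 (3.28%). *atp5d*, the delta subunit of the central stalk, had a log2 fold change of 0.27 ± 0.05 over 3000 UMIs and 0.06 ± 0.04 at 8000 to 20000 UMIs, *ndufb8* of 0.27 ± 0.07 and 0.04 ± 0.04, and *atp5j2* of 0.25 ± 0.05 and −0.01 ± 0.04.

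In *her3* cells 31 of 78 members rose over 3000 UMIs, with 17.8% of all genes called and 6.91% higher (median 0.16). At 8000 to 20000 UMIs 3 rose and 3 fell of 75, with 18.9% of all genes called (median −0.01). Those that rose at this depth were *atp5d*, *ndufs6* and *atp5g3a*, and *ndufv3*, *atp5b* and *atp5j2* fell. Over 3000 UMIs, 7 members were called without sibling 1 (10.4% of all genes), 13 without sibling 2 (10.7%) and 16 without M*rbm24a* 1 (14.8%). *atp5d* had 183, 194, 143 and 163 CPM in *her3* cells over 3000 UMIs and 159, 168, 126 and 128 CPM in the other cells, higher in every library (0.29 ± 0.05), and 0.14 ± 0.03 at 8000 to 20000 UMIs (adjusted p = 0.0048). *ndufa5* had a log2 fold change of 0.31 ± 0.04 over 3000 UMIs and 0.06 ± 0.05 at 8000 to 20000 UMIs, and the assembly factor *ndufaf1* of 0.26 ± 0.06 and 0.24 ± 0.09.

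In *foxi1* cells only 3 of 78 members rose over 3000 UMIs, with 2.67% of all genes called and 1.14% higher. All 3 encode ATP synthase subunits. The count is small and near the share over all genes, so no result about the members or this complex is read from it. *atp5b*, the catalytic beta subunit, had 483, 572, 407 and 448 CPM in *foxi1* cells and 409, 495, 378 and 403 CPM in the other cells, higher in every library (0.22 ± 0.04, adjusted p = 0.028). *atp5c1* had 113, 137, 91.1 and 99.1 CPM compared with 97.6, 122, 80.0 and 84.7 CPM (0.24 ± 0.04), and *atp5j2* rose by 0.27 ± 0.04. None was called without sibling 2 (0.874% of all genes, 28 members at an unadjusted p under 0.05) or without M*rbm24a* 2 (0.244%, 27 members), and 1 without M*rbm24a* 1 (1.11%). Among cells of 8000 to 20000 UMIs the same 3 genes rose (0.22 ± 0.02, 0.21 ± 0.04 and 0.21 ± 0.05) and 4 fell, namely *ndufv3*, *cox6c*, *cox7c* and *atp5e*. With 11% of all genes called there, members were called no more often than other genes. These cells are part of those over 3000 UMIs, so the same 3 genes add no independent support. Of the targets of p53, listed as a sign of stress, 6 of 6 were higher in *foxi1* cells at both depths, and their part in these values was not tested.

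The calls depended on how the marker cells were set against the others. In 1 setting the marker cells were limited to those positive for 1 marker alone. The other cells were still all cells without that marker, whatever their other markers. Then 6 members were higher and 1 lower for *sox32* (12.3% of all genes called) and 2 and 2 for *tbx6l* (22.5%). There were 1 and 5 for *noto* (13.4%), 0 and 21 for *her3* (27.9%) and 3 and 33 for *foxi1* (16.3%). With the libraries not blocked, so that the spread between libraries entered the error, edgeR called 4 members for *sox32* (*atp5g1*, *cox5ab*, *ndufab1b* and *ndufb10*, 3.49% of all genes) and 3 for *tbx6l* (*atp5g1*, *cox5ab* and *ndufb10*, 8.63%). It then called 0 for *noto* (0.37%), *her3* (8.6%) and *foxi1* (0.516%), with 7, 8 and 2 members at an unadjusted p under 0.05.

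**Figure D4:**
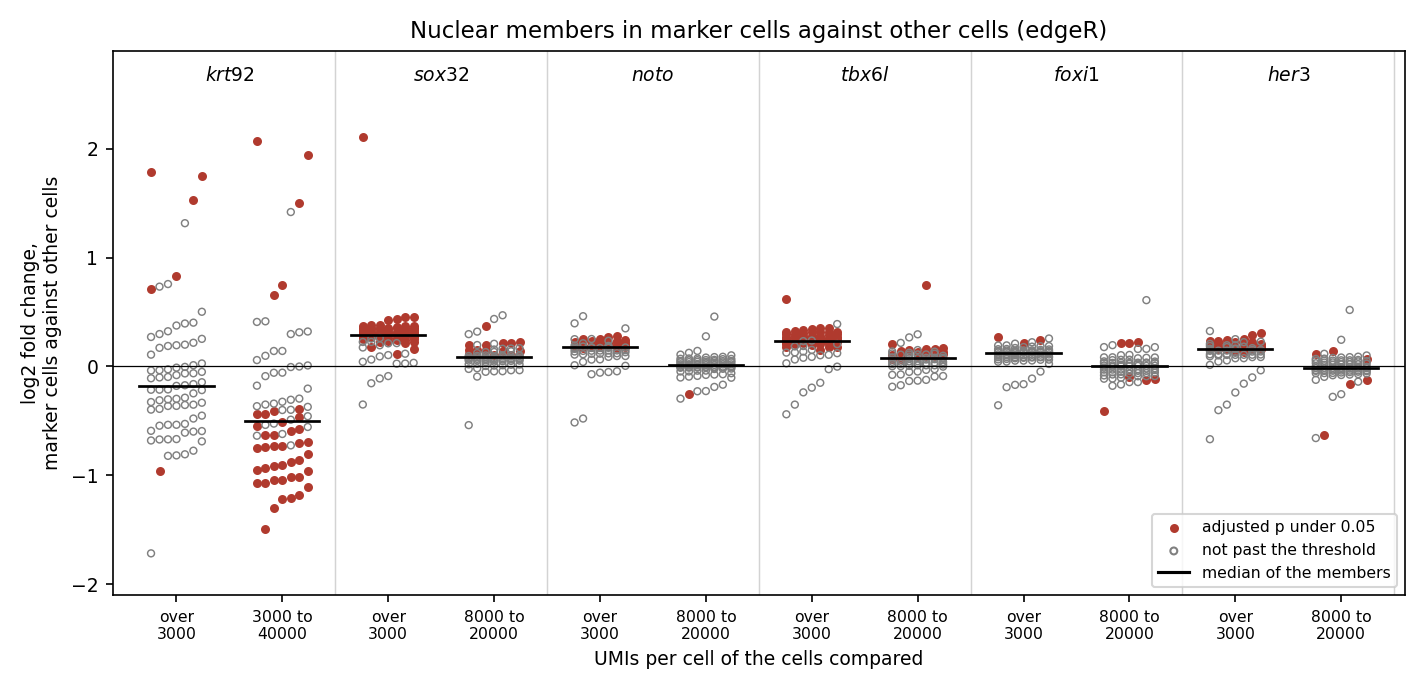
Log2 fold change of each nuclear member in marker cells against the other cells of the same libraries (vertical axis), over 3000 UMIs and, beside it, at 8000 to 20000 UMIs, or at 3000 to 40000 UMIs for *krt92* (horizontal axis). Filled points passed an adjusted p of 0.05 in edgeR and black lines are medians, which move from 0.29 to 0.08 for *sox32* and from −0.18 to −0.50 for *krt92*.

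Between the marker groups, *ndufv3* and *atp5b* moved in both directions. So did *atp5j2*, which at 8000 to 20000 UMIs was called higher in *tbx6l* and *foxi1* cells and lower in *her3* cells. *ndufv3* encodes an accessory subunit of the NADH-oxidizing arm of complex I. At 8000 to 20000 UMIs it had 44.8, 24, 41.4 and 42.6 CPM in *tbx6l* cells, and 24.6, 15.1, 28.3 and 26.5 CPM in the other cells (log2 fold change 0.74 ± 0.07). In *her3* cells it had 19.8, 13.3, 22.6 and 21.4 CPM compared with 32.6, 19.4, 34.6 and 32.5 CPM (−0.63 ± 0.07). It was higher in *tbx6l* cells and lower in *her3* cells of all 4 libraries, and the groups overlapped only through sibling 2. The log2 fold change was 0.37 ± 0.08 in *sox32* cells, −0.41 ± 0.08 in *foxi1* cells and −0.08 ± 0.06 in *noto* cells, where it did not pass the test (adjusted p = 0.65). In *tbx6l* cells the value lay between 0.50 and 0.76 over the 14 settings tried.

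*atp5b* at this depth had 366, 463, 333 and 357 CPM in *noto* cells and 453, 539, 393 and 407 CPM in the other cells, lower in every library (−0.25 ± 0.02, adjusted p = 2.1e-05). It was higher in *foxi1* cells (0.22 ± 0.02) and lower in *her3* cells (−0.12 ± 0.03, adjusted p = 0.0047), and had log2 fold changes of 0.05 ± 0.04 in *sox32* cells and 0.00 ± 0.03 in *tbx6l* cells. Following these genes through all markers was chosen after their values were seen, and since the groups share cells, the 5 comparisons are not independent.

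**Figure D5:**
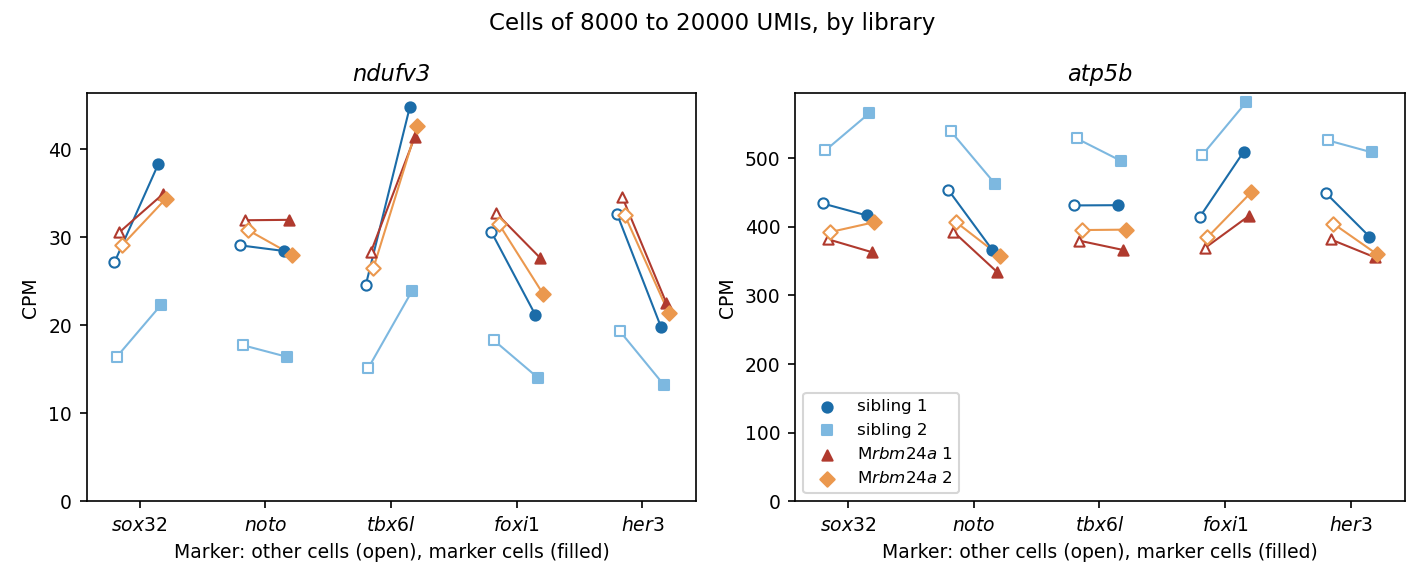
Levels (CPM) of *ndufv3* and *atp5b* in cells of 8000 to 20000 UMIs, with open points for the other cells and filled points for the marker cells of the same library, joined by a line. The 4 lines for *ndufv3* rise for *tbx6l* and fall for *her3*, and those for *atp5b* fall for *noto* and rise for *foxi1*.

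Whether these differences changed with the genotype was tested as an interaction. No member was called for any of the 6 markers by edgeR, the only tool run on the interaction, while 0.0131% of all genes were called for *krt92*, 2.57% for *sox32*, 0.00648% for *noto*, 0% for *tbx6l*, 0% for *foxi1* and 4.68% for *her3*. Members with an unadjusted p under 0.05 numbered 5 for *krt92*, 1 for *sox32*, 10 for *noto*, 2 for *tbx6l*, 1 for *foxi1* and 2 for *her3*. For *krt92*, 24 cells of over 40000 UMIs held 78.9% of the group's UMIs in M*rbm24a* 2, and the interaction was not run without them. Without M*rbm24a* 1, so that M*rbm24a* 2 stood alone and was assumed to vary like the siblings, 39 members were called for *krt92* (15.2% of all genes), 20 for *noto* (3.73%), 4 for *tbx6l* (1.38%), 3 for *her3* (4.96%) and 1 for *sox32* (2.52%), all higher, while for *foxi1* none was called (0%) and 26 had an unadjusted p under 0.05.

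Other genes of mitochondrial metabolism were read in the same comparisons. Between genotypes, 1.1% of all genes were called. Of 4 entries of complex II 0 were called, and 1 of 30 entries of cytochrome c and assembly factors outside the set, *sco2*, was lower. None of 11 entries for upkeep and transcription of mitochondrial DNA, 10 for nuclear regulators, 21 for the TCA cycle and 6 for carriers and channels was called. In *krt92* cells of 3000 to 40000 UMIs, where 24.5% of all genes were called lower and 21.2% higher, 9 of 29 cytochrome c and assembly entries were lower and 3 higher (*ecsit* and both entries for *cox17*, the copper chaperone of complex IV), 4 of 9 genes for mitochondrial DNA were lower, among them *tfam* and *ssbp1*, and 6 of 9 nuclear regulators were lower, among them *nrf1* and *pprc1*. Of the TCA cycle 2 were lower and 2 higher of 21 entries, of complex II 0 of 4 were called, and 4 of 6 carriers and channels were lower.

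In cells under 3000 UMIs, where 28.4% of all genes were called and 15.5% called lower, 11 of 30 cytochrome c and assembly entries fell and 2 rose, 6 of 21 TCA cycle entries fell, 5 of 6 carriers and channels fell (among them the voltage-dependent anion channel genes *vdac1*, *vdac2* and *vdac3*), and 71 of 86 entries for cytosolic ribosomal proteins fell and 2 rose. In *sox32* cells of 8000 to 20000 UMIs, 7.48% of all genes were called. None of the entries of complex II, of cytochrome c and assembly factors and of carriers and channels was called there. In *tbx6l* cells of that depth 18.5% of all genes were called. There *pdhb* rose and both entries for *idh3g* fell among 21 TCA cycle entries, and *slc25a5*, an ADP/ATP carrier, rose.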

How the data were processed

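Cells of whole zebrafish embryos at the shield stage were profiled in 4 libraries with the Chromium 3′ kit v3.1. The authors filtered reads with Trimmomatic, counted UMIs with Cell Ranger, corrected for ambient RNA (DecontX), took out doublets (Scrublet) and dropped cells beyond the median ± 5 median absolute deviations. The submitters' processing notes name GRCz10. For Cell Ranger's version and the annotation, the entry is: not given in the sources used here. Estimated counts were deposited, with decimals and with unequal totals per cell. All 14455 deposited cells were used, with no further doublet caller.

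Members were found by symbol among 47394 features, and the mitochondrial entries through synonyms in a RefSeq table of GRCz12tu (13 of 13 matched). The members, markers and gene lists were chosen with earlier results of these data known. Values were summed per library and cell group, rounded, and tested by the quasi-likelihood method of edgeR 4.0.16 (R 4.3.3) after filterByExpr and TMM. P-values were adjusted over all genes tested by Benjamini-Hochberg, with a threshold of 0.05. The library was a block in all comparisons of cells within libraries, and genotypes were compared with no covariate. Shares of UMIs have no test and are given for groups of at least 20 cells. Log2 fold changes and adjusted p-values in the text come from edgeR unless another tool is named. The edgeR test gives no SE. The SE printed is the absolute log2 fold change divided by the square root of the F statistic of the test. With 2 libraries a genotype, p-values of the genotype test measure the spread between these 4 libraries only. In comparisons blocked by library, the level of each library is taken out. Their p-values measure only how the differences within libraries vary over the 4 libraries.

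The alternatives tried were no filter on low counts, RLE factors, DESeq2 1.42.0, limma 3.58.1 on log2(CPM + 1), each library left out, no library block, the replicate number as a block, a marker value over 1.5, cells with 1 marker alone, cells of 8000 to 20000 UMIs, sums without mitochondrial genes, and limits of 2000 and 5000 UMIs between depth classes. For 1 marker alone, only the marker cells were limited, and the other cells stayed all cells without that marker. Sums of krt92 cells up to 40000 UMIs, genotype sums over 8000 to 20000 UMIs and genotype sums without krt92 cells were added after seeing the data. The genes named are, for each marker, up to 3 called members with the largest rise and up to 3 with the largest fall. For depth they are up to 5 of each, and for genotype the 3 of smallest p, beside paralog families. For krt92, *ndufs6* and *ndufaf4* were taken by size of fall from the sums up to 40000 UMIs. Other genes were chosen after their values were seen. On simulated data, the genotype test recovered 83 of 100 genes changed by 1 on the log2 scale and 97 of 100 changed by 2 (17768 genes), with 8 false among 188 calls. The test of krt92 cells recovered 24 of 100 and 84 of 100 (15296 genes), with 3 false among 111 calls. The test of depth classes recovered 43 of 100 and 77 of 100 (15141 genes), with 8 false among 128 calls. In the simulation each gene varied on its own at the trended dispersion, and only genes above a minimum mean count were changed. The simulated genotype data held no shift of many genes in a single library, such as that of sibling 2. The rates therefore need not hold for the real libraries.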

Additional observations from a re-analysis of the deposited data

How the results depend on the processing

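For the genes named, 268 of 341 alternatives over 27 results kept direction and side of the threshold, 54 lost the call, 13 gained one and 6 turned in direction. *ndufs6* and *ndufaf4* in *krt92* cells are not among the 27. Between genotypes, 28 of 89 members were called with no filter on low counts (6.55% of all genes), 1 with DESeq2, 1 with limma, and 0 to 51 with a library left out. No paired design was assumed, since neither the labels nor the paper say whether the library numbers stand for the batches. Samples of the same number did not deviate together (r = −0.0072 over 17768 genes). With 2 libraries a genotype, this cannot show whether they shared a batch. With the replicate number as a block 2 members were called. In *krt92* cells the count was 19 with no filter (23.1% of all genes), 25 with limma (43.1%), 37 with the marker alone (43.8%), 22 at 8000 to 20000 UMIs (35%, with under 20 *krt92* cells in 3 of 4 libraries), 42 up to 40000 UMIs (45.6%), and 2 to 37 with a library left out. In the order *sox32*, *noto*, *tbx6l*, *foxi1* and *her3*, the members called numbered 4, 0, 3, 0 and 0 without the library block, and 14, 1, 19, 7 and 6 at 8000 to 20000 UMIs. With the marker alone they numbered 7, 6, 4, 36 and 21. With a library left out they ranged over 44 to 52, 0 to 34, 20 to 51, 0 to 2 and 7 to 22. DESeq2 called 8 for *foxi1* and limma 19 for *her3*. The interaction with genotype gave 1 member for *noto* with no filter, and with a library left out 0 to 39 for *krt92*, 0 to 1 for *sox32*, 0 to 20 for *noto*, 0 to 4 for *tbx6l* and 0 to 3 for *her3*.

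The log2 fold change turned with the marker alone for *ndufb8* (−0.0622), *atp5d* (−0.0175) and *atp5j2* (−0.10) in *noto* cells and for *atp5j2* in *tbx6l* cells (−0.0066) and *foxi1* cells (−0.0452), and at 8000 to 20000 UMIs for *atp5j2* in *noto* cells (−0.0057). The difference in nuclear share, in percentage points, was 0.0293 for *sox32*, −0.0146 for *noto*, −0.0049 for *tbx6l*, −0.0518 for *foxi1* and −0.0627 for *her3* with the marker alone, and 0.0406, 0.0063, 0.0275, −0.0054 and −0.0164 at 8000 to 20000 UMIs. For *her3* it was 0.0394 as a median of the cells. For *krt92* it was −0.207 over 3000 UMIs, −0.349 with the marker alone and −0.286 as a median of the cells. The cause of these changes was not tested. Depth limited the genes of few UMIs, such as *cox4i2*, and cells under 3000 UMIs, of which sibling 1 had 219.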
